A study of Mus musculus with 10 samples.

Results

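The 48 genes described here mark the endothelium of the liver, and each was taken by its symbol from a table of 24537 gene symbols counted in 10 whole mouse livers. They comprise 13 genes of the sinusoidal endothelium, 5 genes of angiocrine signalling, 26 pan-endothelial genes (11 junction and surface proteins, 12 receptors and signalling proteins and 3 transcription factors) and 4 genes of larger vessels. All livers came from male mice that had received an adeno-associated virus of serotype 8 carrying the Cas9 of Staphylococcus aureus and a guide RNA. The hepatocyte promoter TBG drives the Cas9, so by design hepatocytes are edited and endothelial cells are not. The young control group was 3 livers of mice aged 9 months that received the Rosa26 guide, a control cut at a neutral locus, at 7 months. The old control group was 3 livers of mice aged 25 months that received the Rosa26 guide at 23 months. The old Cd44 knockout group was 4 livers of mice aged 25 months that received a guide to the cell surface receptor gene Cd44 at 23 months, with guide 4 in replicates 1 and 2 and guide 2 in replicates 3 and 4. There was no group without virus. Replicate numbers only name a liver.

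Liver sinusoids are lined by an endothelium with open pores and no continuous basement membrane, which takes up waste molecules from portal blood through scavenger receptors such as Stab1, Stab2, Mrc1 and Fcgr2b. The same cells send angiocrine signals to hepatocytes: Wnt2, Wnt9b and Rspo3 support the pericentral zone, and Bmp2 and Bmp6 set hepcidin production and so iron balance. Pan-endothelial genes such as Pecam1, Cdh5 and Tie1 are used in sinusoids, veins, arteries and lymphatic vessels, whereas Vwf, Plvap, Cd34 and Sox17 are more typical of larger or capillary-like vessels. In the liver, loss of sinusoidal markers with gain of capillary markers is known as capillarization.

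Total counts were 15821198 to 21710228 per liver, where 3 counts correspond to 0.138 to 0.190 CPM, the read count scaled to library size (with TMM factors, which adjust for differences in library composition). Each of the 48 genes had at least 11 counts in every liver, so no defining endothelial marker was at 0, and all 48 passed the filter on low counts with 13909 genes in all. Cd44 itself had 16.6, 11.1 and 10.1 CPM in the young controls, 14.2, 29.98 and 25.9 CPM in the old controls and 18.9, 29.0, 17.6 and 13.1 CPM in knockout replicates 1 to 4. Its log2 fold change between knockout and old control livers was -0.25 (SE 0.30, adjusted p = 0.896, edgeR quasi-likelihood test), so Cd44 mRNA of whole liver did not separate the groups as labelled. In whole tissue, fewer endothelial cells and less RNA per endothelial cell cannot be told apart.

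Endothelial transcripts made up a larger share of the RNA in old than in young control livers. Of the 48 genes, 33 rose with age at an adjusted p under 0.05 and 0 fell, where 14.1% of all tested genes rose and 8.66% fell. Their median log2 fold change was 0.78, against 0.04 over all tested genes, and 44 of 48 were above 0, as were 52.4% of all genes. The summed level of the 48 genes was 675 to 937 CPM in young controls, 1220 to 1391 CPM in old controls and 873 to 1056 CPM in knockout livers. The groups of control livers did not overlap in this sum. For 32 of the 48 genes, all old controls were above all young controls, which held for 19.7% of all genes.

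The number of genes called depended on single livers. It was 5 without young control replicate 2, 17 without young control replicate 1, 19 without old control replicate 2 and 24 to 33 without any other control liver. The share of all genes called in these fits is not given here. Whether the drop is particular to the endothelial genes cannot be read from these counts. Fcgr2b, Flt4, Eng, Plxnd1 and Plvap were called whichever control liver was left out. Young control replicate 2 had the lowest value of its group for 37 of the 48 genes and replicate 3 the highest for 42, so the endothelial genes varied together between livers of the same group. These ranks were not counted over all genes, and whether such a shift is particular to the endothelial genes was not tested. Old control replicates 1, 2 and 3 were highest for 23, 12 and 13 genes.

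**Figure D1:**
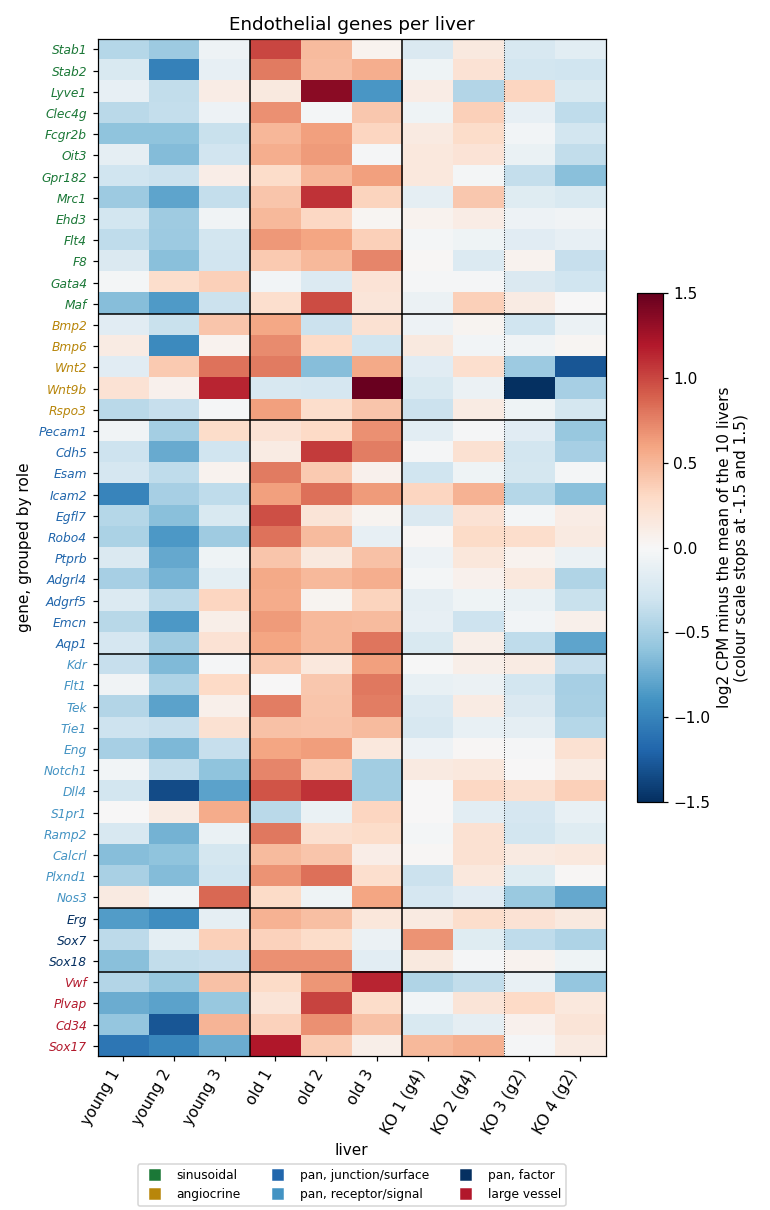
Levels of the 48 endothelial genes (rows, grouped by class) in the 10 livers (columns, grouped by age and genotype), shown as log2 CPM minus the mean of that gene over all livers. The old control columns are mostly above the mean across classes, while Gata4, S1pr1, Nos3, Wnt2 and Wnt9b do not follow that pattern.

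Sinusoidal genes were among those that rose most regularly: 11 of 13 passed the test, all upwards, with a median log2 fold change of 0.90. Flt4, the receptor for the growth factors VEGF-C and VEGF-D that marks sinusoids as well as lymphatic vessels, had 20.7, 18.4 and 22.3 CPM in young controls (20.5 ± 1.96, SD, n = 3) and 42.2, 40.5 and 34.5 CPM in old controls (39.1 ± 4.03, SD, n = 3). Its lowest old control lay well above its highest young control, with a log2 fold change of 0.93 (SE 0.12, adjusted p = 0.00667). Fcgr2b, the inhibitory Fc receptor that clears immune complexes, had 17.9, 17.9 and 21.5 CPM in young controls (19.1 ± 2.06, SD, n = 3) and 38.2, 41.6 and 33.9 CPM in old controls (37.9 ± 3.81, SD, n = 3). These groups did not overlap either, and the log2 fold change was 0.99 (SE 0.15, adjusted p = 0.00762).

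Mrc1, the mannose receptor of sinusoidal endothelium and of macrophages, had 22.9, 19.4 and 26.1 CPM in young controls (22.8 ± 3.32, SD, n = 3) and 44.9, 71.2 and 42.3 CPM in old controls (52.8 ± 16, SD, n = 3). All old controls were above all young controls, but old control replicate 2 stood far above the other old controls. The log2 fold change was 1.21 (SE 0.23, adjusted p = 0.00936). Clec4g, a C-type lectin and the sinusoidal gene with the highest level per length, reached 14.3 CPM per kilobase of exon in young controls, 22.4 in old controls and 16.9 in knockout livers. It had 31.9, 33.0 and 40.3 CPM in young controls (35.1 ± 4.57, SD, n = 3) and 68.2, 41.6 and 55.9 CPM in old controls (55.2 ± 13.3, SD, n = 3). Old control replicate 2 lay just above the highest young control, and the log2 fold change of 0.65 (SE 0.21) had an adjusted p of 0.0472.

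The other sinusoidal genes that rose were the hyaluronan and scavenger receptors Stab2 (log2 fold change 1.01, adjusted p = 0.0131) and Stab1 (0.90, adjusted p = 0.0188), the transcription factor Maf (1.10, adjusted p = 0.0104) and coagulation factor F8 (0.91, adjusted p = 0.0104). Oit3, Gpr182 and Ehd3 also passed, with log2 fold changes of 0.76, 0.63 and 0.56. The exceptions were Lyve1 and Gata4. Lyve1, a hyaluronan receptor shared with lymphatic vessels and some macrophages, had 9.6, 8.11 and 11.3 CPM in young and 11.6, 26.9 and 5.72 CPM in old controls. The old controls spanned the whole young range, with a log2 fold change of 0.61 (SE 0.43, adjusted p = 0.324). Gata4, a transcription factor needed for sinusoidal identity and also present in hepatocytes and stellate cells, had 21.0, 25.6 and 27.4 CPM in young and 20.8, 18.5 and 24.6 CPM in old controls. The groups overlapped, and its log2 fold change was -0.21 (SE 0.15, adjusted p = 0.316).

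**Figure D2:**
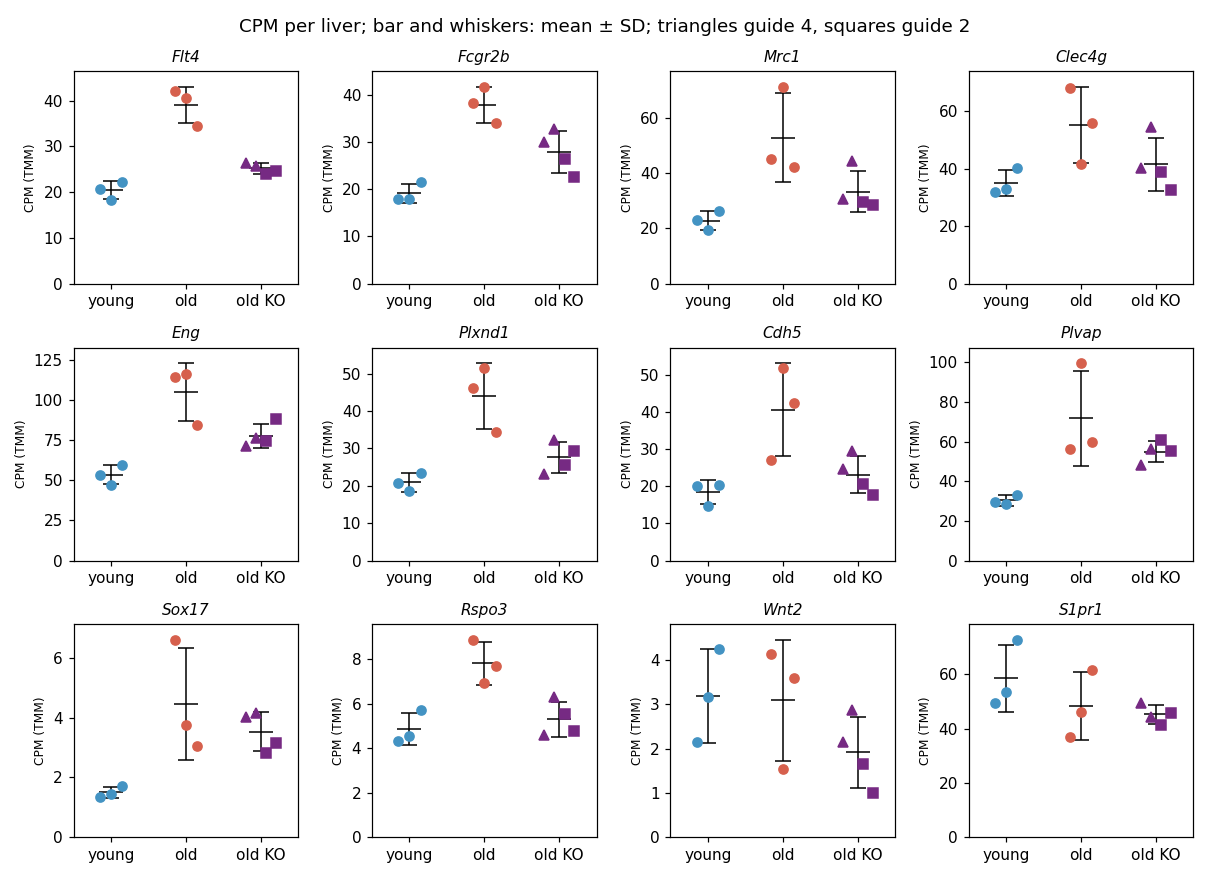
CPM of single livers (points; triangles for guide 4, squares for guide 2) for selected endothelial genes in young control, old control and knockout livers, with the mean (middle bar) and SD (whiskers) of each group. Flt4, Fcgr2b, Eng and Plvap have all old controls above all young controls, whereas S1pr1 and Wnt2 overlap between the age groups.

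Of the 5 angiocrine genes 1 rose, and 4 had a log2 fold change above 0, with a median of 0.20. The gene that rose was Rspo3, which amplifies Wnt signals to pericentral hepatocytes. It had 4.34, 4.55 and 5.7 CPM in young controls (4.86 ± 0.731, SD, n = 3) and 8.84, 6.93 and 7.68 CPM in old controls (7.81 ± 0.967, SD, n = 3). The groups were apart, with a log2 fold change of 0.68 (SE 0.19, adjusted p = 0.0307).

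Bmp2 had the highest level per length among the angiocrine genes, with 12.4, 11.1 and 18.7 CPM in young and 20.9, 11.2 and 16.4 CPM in old controls. These ranges overlapped almost wholly, with a log2 fold change of 0.20 (SE 0.24, adjusted p = 0.573). Its relative Bmp6 had a log2 fold change of 0.48 (adjusted p = 0.263). The Wnt ligands, named here after their values were seen, had few CPM and wide errors. Wnt2 had 2.14, 3.16 and 4.24 CPM in young and 4.13, 1.55 and 3.58 CPM in old controls. Wnt9b had 1.83, 1.65 and 3.48 CPM in young and 1.33, 1.32 and 4.39 CPM in old controls. In both ligands the spread within each age group exceeded the difference between them, with log2 fold changes of -0.05 (SE 0.43) and 0.01 (adjusted p = 0.988).

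Among the 11 junction and surface genes, 9 rose. Adgrl4, an adhesion receptor of vascular endothelium, had 5.69, 4.94 and 7.28 CPM in young controls (5.97 ± 1.19, SD, n = 3) and 11.9, 11.2 and 11.7 CPM in old controls (11.6 ± 0.37, SD, n = 3). The old controls were nearly equal and apart from the young ones, with a log2 fold change of 0.96 (SE 0.20, adjusted p = 0.0108). Robo4, a guidance receptor that stabilises vessels, had 11.1, 8.5 and 10.7 CPM in young controls (10.1 ± 1.41, SD, n = 3) and 27.2, 21.5 and 14.2 CPM in old controls (20.9 ± 6.52, SD, n = 3). Its old controls ran from just above the young range to far above it, with a log2 fold change of 1.05 (SE 0.22, adjusted p = 0.0109).

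Cdh5, the cadherin of endothelial junctions, had 20.2, 14.8 and 20.3 CPM in young controls (18.4 ± 3.17, SD, n = 3) and 27.2, 52.0 and 42.6 CPM in old controls (40.6 ± 12.5, SD, n = 3). The groups did not overlap, and the log2 fold change was 1.14 (SE 0.25, adjusted p = 0.0129). Aqp1, a water channel of endothelium and bile ducts, had the highest level per length of all 48 genes in young controls, at 20.4 CPM per kilobase. It had 50.3, 41.3 and 69.2 CPM in young controls (53.6 ± 14.3, SD, n = 3) and 89.6, 83.5 and 104 CPM in old controls (92.2 ± 10.3, SD, n = 3). All old controls were higher, with a log2 fold change of 0.78 (SE 0.23, adjusted p = 0.0338). Icam2, Egfl7, Emcn, Ptprb and Esam also rose, by 0.62 (Esam) to 1.29 (Icam2) on the log2 scale. Pecam1, the adhesion molecule most used to mark endothelium, had a log2 fold change of 0.48 (adjusted p = 0.12), and the adhesion receptor Adgrf5 had 0.39 (adjusted p = 0.152).

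Of the 12 receptors and signalling proteins, 8 rose. Eng, the co-receptor through which BMP9 and BMP10 act on endothelium, had 53.3, 47.3 and 59.2 CPM in young controls (53.3 ± 5.94, SD, n = 3) and 114, 116 and 84.2 CPM in old controls (105 ± 17.9, SD, n = 3). Every old control exceeded every young control, with a log2 fold change of 0.98 (SE 0.15, adjusted p = 0.00767). Plxnd1, a semaphorin receptor that also senses flow, had 20.7, 18.5 and 23.5 CPM in young controls (20.9 ± 2.49, SD, n = 3) and 46.1, 51.5 and 34.4 CPM in old controls (44.0 ± 8.75, SD, n = 3). It was likewise apart between the ages, with a log2 fold change of 1.07 (SE 0.18, adjusted p = 0.00783). Calcrl, the receptor that forms the adrenomedullin receptor with Ramp2, had 5.99, 6.13 and 7.73 CPM in young and 12.9, 12.4 and 9.96 CPM in old controls. The groups were separate, with a log2 fold change of 0.83 (SE 0.16, adjusted p = 0.0101), and its partner Ramp2 rose by 0.78.

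The angiopoietin receptors Tek and Tie1 rose by 1.0 (adjusted p = 0.0162) and 0.56 (adjusted p = 0.0363), and Kdr, the main VEGF-A receptor, by 0.72. Dll4, a Notch ligand of sprouting and arterial endothelium, rose by 1.39 (adjusted p = 0.0287), although old control replicate 3 had 2.77 CPM and lay within the young range. The remaining genes of this class did not pass. Notch1 had a log2 fold change of 0.60 (adjusted p = 0.109) and the VEGF receptor Flt1 had 0.48 (adjusted p = 0.182). S1pr1, the sphingosine phosphate receptor that keeps vessels tight, had 49.3, 53.7 and 72.6 CPM in young and 37.1, 46.1 and 61.8 CPM in old controls. The groups overlapped, with a log2 fold change of -0.28 (SE 0.19, adjusted p = 0.316). Nos3, the endothelial nitric oxide synthase, had 5.26, 4.61 and 8.68 CPM in young and 5.85, 4.56 and 7.2 CPM in old controls, nearly the same range, with a log2 fold change of -0.08 (SE 0.28, adjusted p = 0.862).

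Of the 3 transcription factors, Erg and Sox18 rose. Erg, an ETS factor that maintains endothelial identity, had 2.69, 2.51 and 4.37 CPM in young controls (3.19 ± 1.03, SD, n = 3) and 6.88, 6.56 and 5.39 CPM in old controls (6.28 ± 0.785, SD, n = 3). The groups were apart, with a log2 fold change of 0.97 (SE 0.23, adjusted p = 0.0154). Sox18, a factor of vessel and lymphatic development, had 4.53, 5.41 and 5.51 CPM in young and 11.3, 11.3 and 6.29 CPM in old controls. Its lowest old control was close to the young livers, with a log2 fold change of 0.90 (SE 0.23, adjusted p = 0.0197). The related Sox7 had a log2 fold change of 0.22 (adjusted p = 0.669).

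Among the 4 genes of larger vessels, Plvap and Sox17 rose. Plvap, which forms the diaphragms of endothelial pores and caveolae, had 29.5, 28.3 and 33.2 CPM in young controls (30.3 ± 2.55, SD, n = 3) and 56.4, 99.5 and 59.7 CPM in old controls (71.8 ± 24.0, SD, n = 3). All old controls were above the young ones, with a log2 fold change of 1.24 (SE 0.20, adjusted p = 0.00772), and in old controls its 36.2 CPM per kilobase was the highest level per length of the 48 genes, next to 35.1 for Aqp1, a gap smaller than the spread of Plvap between these livers. Sox17, a factor of arterial endothelium, had 1.35, 1.45 and 1.71 CPM in young controls (1.5 ± 0.187, SD, n = 3) and 6.58, 3.74 and 3.05 CPM in old controls (4.46 ± 1.87, SD, n = 3). This was the largest log2 fold change with age among the 48 genes, at 1.56 (SE 0.32, adjusted p = 0.0105), and its groups did not overlap. Vwf, the clotting protein of larger vessels and megakaryocytes, had 5.87, 5.34 and 10.8 CPM in young and 9.68, 12.6 and 17.5 CPM in old controls. The groups overlapped, with a log2 fold change of 0.86 (SE 0.29, adjusted p = 0.0524). Cd34 had a log2 fold change of 0.76 (adjusted p = 0.148).

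**Figure D3:**
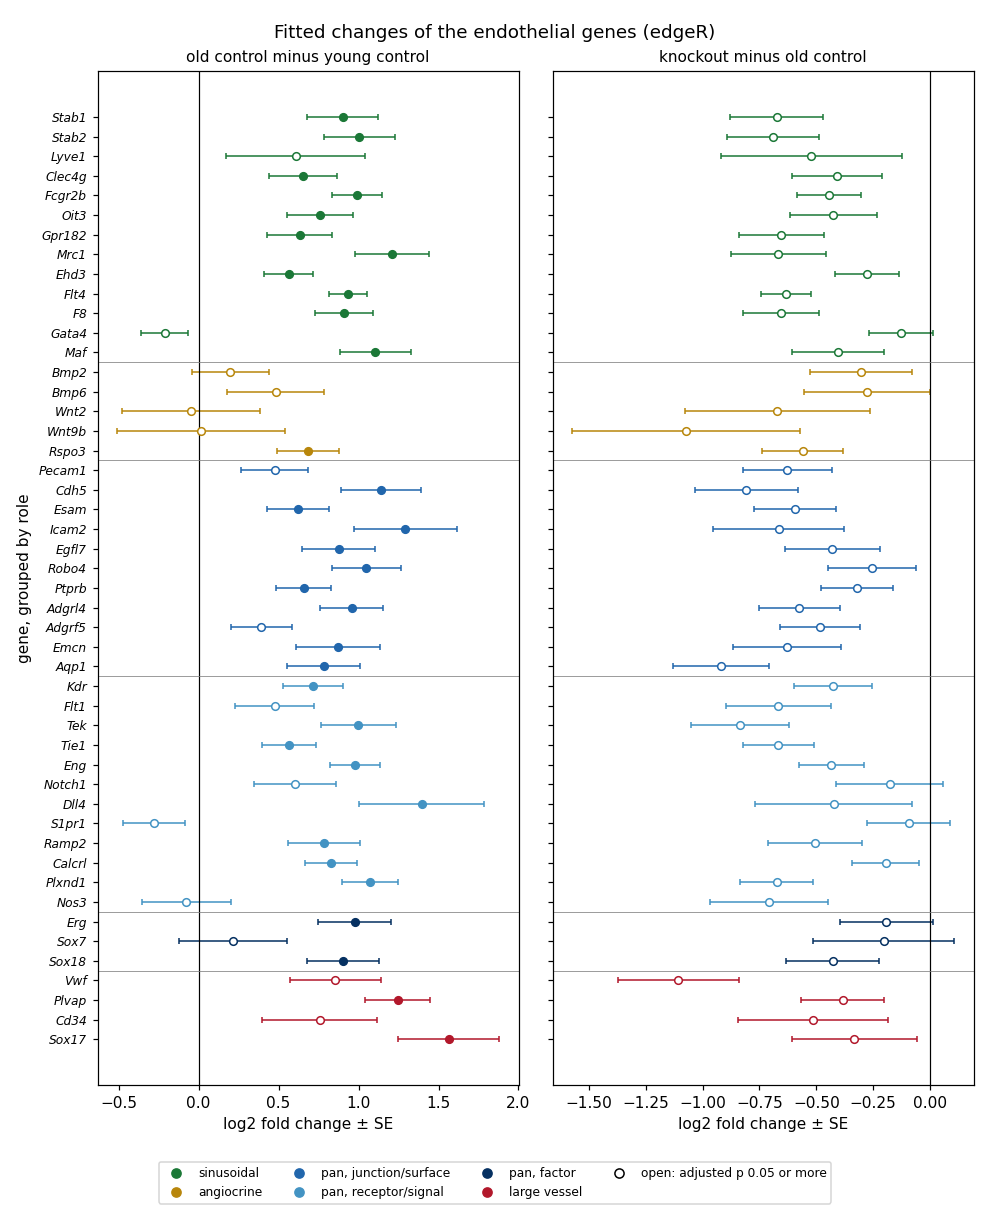
Log2 fold changes (points) with their standard errors (bars) of the 48 endothelial genes, grouped by class, for old against young control livers and for knockout against old control livers; both comparisons use the same old controls. The age values run from -0.28 (S1pr1) to 1.56 (Sox17) with 33 genes called, and the knockout values are all below 0 with 0 genes called.

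Sequence upstream of the endothelial genes, called with age or not, was read from RefSeq (GRCm38.p6), where 28 of the 48 symbols matched. In windows of 250 bases before the transcript start, searched on both strands, the letters AGGAAG, the core of many ETS factor sites, were found in 17 of 28 genes (60.7%), against 32.3% of the 27025 genes in the table. The letters CCGGAAG were found in 0 of 28 genes (7.83% of all genes) and TGTTTAC, a forkhead core, in 0 of 28 (3.54%). The GATA core AGATAA was found in 1 of 28, Erg, against 11.4% of all genes. A match is a description of the letters only. Several of the windows overlap annotated exons, by all 250 bases in Ehd3, Flt4, F8 and Bmp6. Among genes with AGGAAG the overlap reached 212 bases in Tie1, 145 in Calcrl, 83 in Stab2 and 75 in Robo4. The 5 windows below belong to genes that rose with age in the sinusoidal, receptor and junction classes and overlap no exon of GENCODE M21; the first 4 hold AGGAAG or its reverse complement, in capitals, and Tek holds none of the 4 motifs. They lie at chr8:3720652-3720901, minus strand (Clec4g), chr2:32646345-32646594, plus strand (Eng), chr6:115995006-115995255, minus strand (Plxnd1), chr3:151437632-151437881, plus strand (Adgrl4) and chr4:94739039-94739288, plus strand (Tek). Each is written 5′ to 3′ on the strand of its gene, with the transcript start just after its last base. In Clec4g 2 of the 3 matches share bases, and in Eng the last match ends at the transcript start.
Clec4g: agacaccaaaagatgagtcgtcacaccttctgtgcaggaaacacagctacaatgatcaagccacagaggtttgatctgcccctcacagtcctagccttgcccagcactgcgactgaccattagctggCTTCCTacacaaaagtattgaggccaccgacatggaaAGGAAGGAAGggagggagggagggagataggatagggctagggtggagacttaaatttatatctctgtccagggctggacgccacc
Eng: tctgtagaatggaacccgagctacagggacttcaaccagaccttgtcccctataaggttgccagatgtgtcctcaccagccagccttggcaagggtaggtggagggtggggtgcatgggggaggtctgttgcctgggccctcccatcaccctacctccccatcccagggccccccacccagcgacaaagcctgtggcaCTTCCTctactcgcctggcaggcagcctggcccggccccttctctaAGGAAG
Plxnd1: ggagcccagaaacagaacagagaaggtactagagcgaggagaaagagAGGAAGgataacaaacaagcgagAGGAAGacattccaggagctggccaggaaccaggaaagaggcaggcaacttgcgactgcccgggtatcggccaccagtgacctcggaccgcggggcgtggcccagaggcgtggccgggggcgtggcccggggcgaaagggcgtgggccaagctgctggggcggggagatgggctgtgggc
Adgrl4: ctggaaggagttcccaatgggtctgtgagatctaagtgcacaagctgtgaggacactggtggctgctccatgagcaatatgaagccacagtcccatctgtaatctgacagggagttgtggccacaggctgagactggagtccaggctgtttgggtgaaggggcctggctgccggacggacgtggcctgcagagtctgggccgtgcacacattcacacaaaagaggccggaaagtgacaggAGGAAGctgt
Tek: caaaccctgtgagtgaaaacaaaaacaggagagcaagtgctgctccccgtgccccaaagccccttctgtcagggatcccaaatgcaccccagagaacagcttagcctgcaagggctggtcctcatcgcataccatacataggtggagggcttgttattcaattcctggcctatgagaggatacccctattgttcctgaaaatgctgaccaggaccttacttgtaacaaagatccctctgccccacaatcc

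To compare classes with each other, age changes were also measured relative to 9 pan-endothelial reference genes (Pecam1, Cdh5, Tie1, Esam, Icam2, Robo4, Ptprb, Erg and Egfl7), whose geometric mean replaced the library scaling. Relative to them 0 of the other 39 genes rose and 4 fell with age, where 3.17% of all genes rose and 60% fell on this scale. The median relative log2 fold change was 0.05 for the sinusoidal genes, -0.62 for the angiocrine genes and 0.24 for the genes of larger vessels. The error of the reference genes is not part of these tests.

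The genes that fell against the pan-endothelial reference were S1pr1 (relative log2 fold change -1.09, SE 0.25, adjusted p = 0.00128), Gata4 (-1.05, SE 0.22, adjusted p = 0.000741), Nos3 (-0.87, SE 0.27, adjusted p = 0.01) and Bmp2 (-0.62, SE 0.23, adjusted p = 0.0281). Most genes of whole liver fell on this scale, and on the library scale the same 4 genes had log2 fold changes between -0.28 and 0.20, none of them called. With old control replicate 3 left out, 8 genes were called, 2 higher and 6 lower, and with Cdh5 and Pecam1 alone as the reference 2 were called. The shares of all genes called in these alternative fits are not given here, so these counts cannot be read as particular to the endothelial genes. With all livers, Gata4 was the only sinusoidal gene called, and no large-vessel gene was. Sox17 had the highest value of the 39, at 0.71, which was not called.

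**Figure D4:**
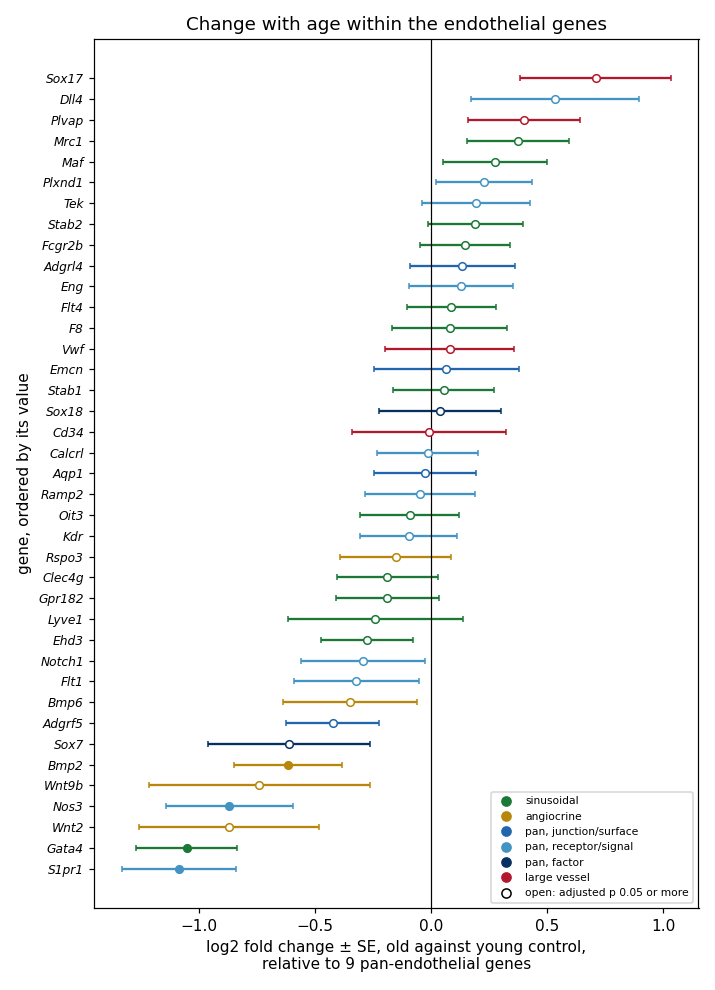
Log2 fold changes with age (points) and their standard errors (bars) relative to the 9 pan-endothelial reference genes, for the 39 other endothelial genes ordered by value and coloured by class; open points have an adjusted p of 0.05 or more. The filled points are S1pr1, Gata4, Nos3 and Bmp2 at the lower end, and sinusoidal genes are spread around 0.

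Each class was also summarised in each liver by the median over its genes of log2 CPM minus the mean of the gene over the 10 livers. The sinusoidal median minus the pan-endothelial median was 0.03, 0.06 and -0.03 in young controls, -0.08, 0.09 and -0.01 in old controls and 0.04, 0.05, -0.01 and -0.13 in knockout replicates 1 to 4. These values overlapped between all groups. For larger vessels the same difference was -0.33, -0.26 and 0.02 in young controls, -0.27, 0.25 and 0.02 in old controls and -0.08, -0.06, 0.13 and 0.29 in knockout livers. Again the groups overlapped, and the livers of a group differed as much as the groups did. For the angiocrine genes it was 0.15, 0.27 and 0.50 in young controls, 0.03, -0.65 and 0.07 in old controls and -0.11, -0.05, -0.17 and -0.12 in knockout livers, so every old liver was below every young one, with old control replicate 2 the lowest.

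Knockout and old control livers were compared to ask whether editing Cd44 in old hepatocytes goes with a different endothelial profile. No endothelial gene passed the test, and neither did any gene of the whole table (0 of 48, with 0% called over all genes, edgeR). All 48 genes nevertheless had a log2 fold change below 0, against 54.4% of all genes, with a median of -0.51 (-0.02 over all genes). Some marker lists of other cells were also wholly below 0: 13 of 13 macrophage genes (median -0.90), 12 of 12 stellate cell genes (median -0.37) and 5 of 5 platelet and megakaryocyte genes (median -1.30). The other lists were mixed. Below 0 were 6 of 8 leukocyte genes (median -0.19), 4 of 5 lymphatic genes (-0.38), 4 of 7 hepatocyte genes (-0.06) and 2 of 6 bile duct genes (0.06). The part of these cells in the endothelial values was not tested. At an unadjusted p under 0.05, 26 of the 48 were lower and 0 higher, against 4.02% and 2.57% of all genes, and for 22 of the 48 every knockout liver lay below every old control, against 3.26%. The adjusted p-values ranged from 0.744 to 0.934. The medians were -0.52 for sinusoidal, -0.56 for angiocrine, -0.50 for pan-endothelial and -0.45 for large-vessel genes. This comparison uses the same 3 old controls as the age comparison, and the 2 are not independent of each other.

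Flt4 had the lowest unadjusted p, with 26.4 and 25.8 CPM under guide 4 and 23.9 and 24.7 CPM under guide 2 (25.2 ± 1.11, SD, n = 4), all below the lowest old control of 34.5 CPM. Its log2 fold change was -0.63 (SE 0.11, unadjusted p = 0.000119, adjusted p = 0.744). It was the only endothelial gene called by DESeq2 (log2 fold change -0.64, adjusted p = 0.00288), and the share of all genes called by DESeq2 is not given here. Aqp1 had 50.9, 63.6, 45.9 and 34.5 CPM in knockout replicates 1 to 4, against 83.5 to 104 CPM in old controls. All knockout livers were lower, with a log2 fold change of -0.92 (SE 0.21, unadjusted p = 0.00112). Plxnd1 had 23.1, 32.2, 25.6 and 29.4 CPM, also below the old control range of 34.4 to 51.5 CPM, with a log2 fold change of -0.67 (SE 0.16, unadjusted p = 0.00145).

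Vwf, chosen here after its values were seen, had 5.81, 6.15, 7.34 and 5.31 CPM in knockout livers, against 9.68 to 17.5 CPM in old controls. Its groups were apart, with the most negative log2 fold change of the 48 genes, -1.11 (SE 0.26, unadjusted p = 0.00147). Eng had 71.3, 76.2, 74.5 and 88.4 CPM and overlapped the old controls because replicate 4 exceeded their lowest value of 84.2 CPM, with a log2 fold change of -0.43 (SE 0.14, unadjusted p = 0.0107). Clec4g, at 40.4, 54.4, 38.8 and 32.6 CPM, overlapped as well (-0.41, SE 0.20, unadjusted p = 0.0604). Plvap, at 48, 56.2, 60.7 and 55.1 CPM, overlapped the 2 lower old controls (-0.38, unadjusted p = 0.0602). Among angiocrine genes, Rspo3 had 4.59, 6.28, 5.51 and 4.78 CPM, below all old controls (-0.56, SE 0.18, unadjusted p = 0.00918). Wnt9b had 1.34, 1.48, 0.518 and 1.11 CPM and overlapped them (-1.07, SE 0.50, unadjusted p = 0.0547).

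Relative to the 9 pan-endothelial genes, 0 of 39 genes were called between knockout and old control livers, where 0% of all genes were. The lowest adjusted p was 0.0876, for Vwf (relative log2 fold change -0.63), and Aqp1 followed (-0.45, adjusted p = 0.107). Within the knockout group, replicate 2 had the highest value for 31 of the 48 genes and replicate 4 the lowest for 24.

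Against young controls, 7 genes were higher in the old knockout livers and 0 lower, where 6.64% and 4.97% of all genes were called higher and lower. These were Fcgr2b (log2 fold change 0.54, adjusted p = 0.038), Robo4 (0.79, adjusted p = 0.0352), Eng (0.54, adjusted p = 0.0379), Calcrl (0.63, adjusted p = 0.0312), Erg (0.78, adjusted p = 0.0418), Plvap (0.86, adjusted p = 0.0245) and Sox17 (1.23, adjusted p = 0.0321). The median of the 48 genes was 0.27. The count rests on single livers, since it ranged from 0 to 5 when any single young or knockout liver was left out. For these fits too, the share of all genes called is not given here. Flt4, at 23.9 to 26.4 CPM in knockout and 18.4 to 22.3 CPM in young livers, was apart between these groups, with a log2 fold change of 0.30 (adjusted p = 0.0955).

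With 2 livers each, the guides were not told apart by any of the 48 genes. Between guide 4 and guide 2, 0 of 48 genes were called, where 0.0216% of all genes were, and the lowest adjusted p was 0.681. At an unadjusted p under 0.05 there were 2 genes, both higher with guide 4, against 4.34% of all genes in either direction and 2.19% higher. Icam2, an adhesion molecule, had a log2 difference of 0.95 (SE 0.28, unadjusted p = 0.00716), and Gpr182, a sinusoidal chemokine scavenger, of 0.55 (SE 0.20, unadjusted p = 0.0197). The median difference was 0.12 with 37 of 48 above 0, against 50.5% of all genes. Against old controls, guide 2 had a median of -0.60 with 48 of 48 genes below 0 (54.9% of all genes), and guide 4 had -0.45 with 47 of 48 below 0 (55.4%). In each of these comparisons 0 of the 48 genes were called, where 0.0216% of all genes were for guide 2 and 0% for guide 4.

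Other genes of these vessels and pathways were counted in the same age comparison, in which 14.1% of all genes rose and 8.66% fell. Of 11 further sinusoidal genes 5 rose and 0 fell (median 0.79), led by Cd300lg, which went from 11.8 ± 1.82 to 23.0 ± 2.5 CPM (log2 fold change 0.97, adjusted p = 0.00813), and including the lectin Clec1b (1.73, adjusted p = 0.00917) and the nuclease Dnase1l3 (0.70, adjusted p = 0.0247). Of 18 further pan-endothelial genes 13 rose and 0 fell (median 0.95), among them the transcription factor Ets1 (0.98), the lipase anchor Gpihbp1 (1.19) and the surface lectin Clec14a (1.70). Of 18 further genes of arteries, veins and vessel walls 6 rose and 0 fell (median 0.82). They included Nr2f2, a factor of venous identity, from 24.0 ± 1.3 to 43.0 ± 6.48 CPM, and the venous receptor Ephb4 (0.93). Hey1 rose as well (3.02, adjusted p = 0.0101), from 0.367, 0.132 and 0.38 CPM in young to 1.23, 4.37 and 1.72 CPM in old controls. Nr2f2 had 44.3 ± 6.18 CPM in knockout livers, with a log2 fold change of 0.04 (SE 0.14, unadjusted p = 0.761) against old controls. Between knockout and old control livers, 9 of 11 further sinusoidal and 18 of 18 further pan-endothelial genes were below 0. So were 14 of 18 further genes of arteries, veins and vessel walls, against 54.4% of all genes, and 0 of these genes were called, where 0% of all genes were.

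In the lists of pathway genes, few genes were called, and for the Notch and Wnt lists the shares were close to those of all genes. Of all genes, 14.1% rose and 8.66% fell. Of 12 genes of BMP and TGF-beta signalling 3 rose and 2 fell. Gdf2, which encodes the Eng ligand BMP9, had 10.3, 7.32 and 10.6 CPM in young and 18.2, 24.0 and 22.3 CPM in old controls, apart between the groups (1.19, SE 0.17, adjusted p = 0.00667). The BMP target genes Id2 (-0.72, adjusted p = 0.0229) and Id3 (-0.67, adjusted p = 0.0257) fell. In the same list Smad6 (1.01, adjusted p = 0.0263) and Acvrl1 (0.93, adjusted p = 0.045) rose, and Id1 had 0.63 (adjusted p = 0.374). Of 11 VEGF and angiopoietin ligands and partners 3 rose, led by Esm1, which had 0.19 to 1.28 CPM in young livers but 6.73, 16.3 and 0.524 CPM in old ones, so that the ages overlapped. Of 10 Notch and flow genes 2 rose, Piezo1 and Notch4, and of 11 Wnt-responsive genes 2 rose, Nkd1 (1.39, adjusted p = 0.00819) and Rnf43 (0.80, adjusted p = 0.0201).

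Markers of other cells moved with age as well, and their part in the endothelial result was not tested. Of 13 macrophage genes 10 rose and 0 fell (median 1.80), with a summed level of 334 to 488 CPM in young controls, 637 to 2229 CPM in old controls and 582 to 1108 CPM in knockout livers. None of these genes was at 0 in any liver, and old control replicate 2 was the highest. This bears on Mrc1, Stab1, Maf, Fcgr2b and Lyve1, which macrophages also express. Of 12 stellate cell genes 9 rose (median 1.03), with sums of 267 to 398, 472 to 750 and 426 to 489 CPM in young controls, old controls and knockout livers, and of 8 leukocyte genes 6 rose (median 1.81). Of 5 platelet and megakaryocyte genes tested 3 rose, with a sum of 98.5 CPM in old control replicate 2 against 9.87 and 14.2 CPM in the other old controls. Of 5 lymphatic genes 2 rose and 1 fell, of 6 bile duct genes 0 rose and 1 fell, and of 7 hepatocyte genes 0 rose and 2 fell (median -0.33).

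**Figure D5:**
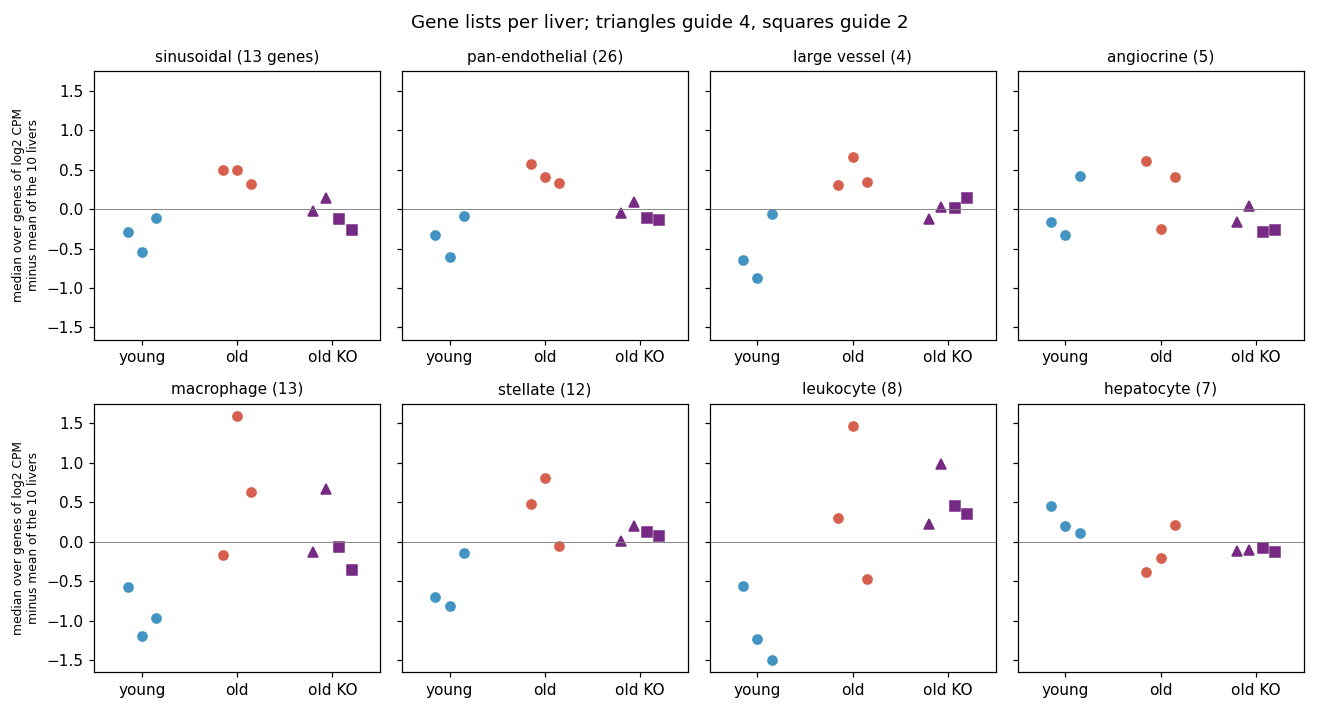
Median over the genes of a list of log2 CPM minus the mean of each gene over the 10 livers, for the 4 endothelial classes (upper row) and 4 lists of other cells (lower row), each point being 1 liver. Sinusoidal and pan-endothelial points of the old controls lie above all others, while macrophage points of the old controls spread from -0.17 to 1.60.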

How the data were processed

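RNA of 10 whole livers was measured by polyA RNA-seq with paired reads of 75 bases, per the labels' protocols. The authors deposited raw counts per gene symbol with no normalization. The submitters' processing notes name FastQC 0.11.8, Trim Galore 0.4.4, STAR 2.5.3a, HOMER and the build mm10; annotation and strand setting are not given in the sources used here. By GENCODE M21 on GRCm38, 16 of the 48 genes share exon bases with another gene, and their reads may be shared. Among them are Egfl7 (with Agpat2), Bmp6 (Txndc5), Ramp2 (Vps25), Eng (Fpgs), Stab1 (Nt5dc2), Gpr182 (Zbtb39) and Nos3 (Atg9b).

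Counts were tested with edgeR 4.0.16 in R 4.3.3 (quasi-likelihood test, TMM factors, filterByExpr with a minimum count of 10, 1 coefficient per group over all 10 libraries). Benjamini-Hochberg adjustment ran over 13909 genes, and a gene was called at an adjusted p under 0.05. The SE is the log2 fold change divided by the square root of F. Guides had separate coefficients in a second fit of the same genes. Class levels are medians over genes of log2 CPM with a prior count of 2, centred per gene. The scripts were tested on simulated data. Alternatives used DESeq2 1.42.0, limma 3.58.1 (voom), other filters, scalings and sample sets.

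The 48 genes, their classes and the other lists were chosen with earlier results of these data known. Values per liver are given for called genes (up to 3 per class by lowest adjusted p), for the gene of each class with the highest level per length and for those called against the pan-endothelial reference. Of other lists up to 3 called genes are named, except the BMP and TGF-beta list, where all called genes and Id1 are named. Livers of a group differed beyond counting noise (chi-square per degree of freedom of at least 20.3). Pairs of old controls differed most, at 65.66 to 169.5, against 20.34 to 31.91 for young and 24.75 to 45.09 for knockout pairs. The labels do not say that the livers are separate animals, so p-values measure the spread between these samples. Floors cover counting error only.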

Additional observations from a re-analysis of the deposited data

Results flagged for a closer look

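Mrc1 in the knockout group was flagged because 1 liver stood apart: replicate 2 had 44.2 CPM, against 28.5 to 30.6 CPM in the others, and this gap was 0.866 of the group's range. The check covered 56 results, of which chance alone would flag about 2.8. Replicate 2 was also the highest knockout liver for 31 of the 48 endothelial genes. The log2 fold change of Mrc1 between knockout and old control livers was -0.67 with it and -0.84 without it, and it was called in neither fit (edgeR).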

How the results depend on the processing

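The age count of 33 was 30 to 34 under other tools, scalings and filters, 15 when the knockout livers were dropped from the fit, and 5 to 33 with each liver left out. For this and the following counts, the shares of all genes called in the alternative fits are not given here. The knockout count of 0 became 1 with DESeq2 (Flt4) and was 0 with any liver left out and with either guide alone. The count of 7 for knockout against young became 4 with limma voom and 16 (15 higher, 1 lower) when old controls were dropped, and 0 to 5 with livers left out. Relative to pan-endothelial genes the age count of 4 became 2 with Cdh5 and Pecam1 as reference and 3 to 8 with livers left out, and the knockout count of 0 became 0 to 1. Upper-quartile scaling moved the median age change of all genes from 0.04 to 0.146, and it turned Wnt2 to 0.057 and Nos3 to 0.0263. With each liver left out, log2 changes with age ranged from -0.317 to 0.274 for Wnt2 (above 0 without young replicate 3, 0.212, or old control 2), -0.255 to 0.243 for Nos3 (above 0 without young 3 or old control 2, 0.0756), -0.0326 (without old control 1) to 0.455 for Bmp2, -0.16 (without old control 2) to 0.989 for Lyve1 and -0.812 (without old control 3) to 0.422 for Wnt9b. Wnt9b was also below 0 with voom (-0.158) and without young 1 (-0.135) or young 2 (-0.183). Between knockout and old control, the ranges were -0.457 to 0.112 for Notch1 and -0.543 to 0.0584 for Sox17 (both above 0 without old control 1), -0.905 to 0.245 for Lyve1 (without old control 2) and -0.252 to 0.123 for S1pr1 (without old control 3); Sox7 was 0.109 with guide 4 alone. The causes were not tested. Of the other single-gene age values 454 kept their side of the threshold, 100 lost and 10 gained a call. No paired analysis was possible because replicate numbers here only follow record order. With 3 livers a group, low genes such as Wnt9b have a counting floor of 0.138 to 0.190 CPM and wide errors.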
